A study of Drosophila melanogaster with 18 samples.

Results

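A set of 10 genes of oxidative and lectin-assisted protein folding in the endoplasmic reticulum (ER) was followed in Drosophila Schneider 2 (S2) cells, an embryonic cell line with blood cell features. The genes were chosen by CG gene number and are 10 of the 6979 genes named among the 7257 probes of the arrays. They are the protein disulphide isomerase Pdi (CG6988) and its relatives ERp60 (CG8983), CaBP1 (CG5809) and prtp (CG1837), the oxidase Ero1L (CG1333), the lectin chaperones Calr (CG9429) and Cnx99A (CG11958), scf (CG9148), sel (CG12918) and wbl (CG7225). In the table a probe is listed by its CG number without the prefix, so probe 6988's gene is Pdi, probe 8983's gene is ERp60 and probe 1333's gene is Ero1L. Of the 10 members, 9 have a value on all 18 arrays, and wbl has 1 value. The 18 spotted arrays with 2 channels fall into 6 groups of 3. They are S2 cells given double-stranded RNA (dsRNA) against XBP-1, with and without DTT, cells labelled as given dsRNA against IRE1, with and without DTT, and control cells without dsRNA, with and without DTT. Cells had 3 rounds of dsRNA at about 15 µg/ml, and DTT was used at 2 mM for 7.4 hours. Control cells were mock treated with no dsRNA at all, so a difference between RNAi and control includes any effect of dsRNA as such. Each array carried Cy5-labelled cDNA of 1 sample beside the same Cy3-labelled reference, made from untreated and DTT-treated S2 cells pooled with embryos.

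Secreted and membrane proteins acquire disulphide bonds and N-linked sugars in the ER. Isomerases of the Pdi family form and rearrange disulphide bonds, and the oxidase Ero1 takes up the electrons that the isomerases receive. Calnexin and calreticulin hold glycoproteins through their sugars while they fold, and in mammals they work with ERp57, the counterpart of ERp60. When unfolded proteins build up, the ER kinase and nuclease IRE1 cuts the Xbp1 mRNA, which encodes a transcription factor, and the spliced form raises transcription of ER folding genes. IRE1 can also cut other mRNAs at the ER membrane. DTT is a reducing agent that breaks disulphide bonds. The comparisons address how DTT changed these mRNAs, and whether that change was another one after dsRNA against XBP-1 or IRE1.

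Values are log2 ratios, read as sample over reference. Neither the base of the logarithm nor the direction of the ratio is stated in the sources used here, so each size and sign below rests on that reading. Array medians ran from -0.81 to 0.24, and an array held 3755 to 6696 values. The array with the fewest, 48.3% empty, was replicate A with DTT among those labelled IRE1 RNAi. Of 11 blood cell markers, 9 had values and SPARC alone lay above the array median (mean 0.46). All 8 measured markers of embryonic muscle and nerve lay below it, with a median of -1.58. Both kinds are ratios to a pool that also holds S2 RNA, so they do not show absence.

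The probes of the dsRNA targets were read beside the labels. The Ire1 probe read 0.80, 2.55 and 2.20 (replicates A, B and C) on the arrays labelled IRE1 RNAi with DTT, and 2.06, 2.06 and 0.13 on those without DTT, against -1.08 to 0.41 on the other 12 arrays. It was thus high, not low, on the arrays that carry its RNAi label, except replicate C without DTT. The value of that array, 0.13, lay within the range of the other 12. Whether added dsRNA itself gave signal at the Ire1 or Xbp1 probes was not tested. These probes therefore cannot settle the labels or the loss of the target mRNAs. The difference from control was 2.04 ± 0.45 with DTT (SE; limma, adjusted p = 0.00626) and 2.11 ± 0.45 without DTT (limma, adjusted p = 0.186). They are therefore called the IRE1-labelled arrays throughout. For the 2 Xbp1 probes, XBP-1 RNAi minus control was -0.39 and -0.65 with DTT (limma, adjusted p = 0.998 for both) and -0.38 and -0.41 without DTT (limma, adjusted p = 0.977 for both).

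Pdi, the founding isomerase, showed the pattern that recurred through most of the set. After DTT its ratio was -2.33, -1.76 and -1.75 under XBP-1 RNAi, -1.19, -1.11 and -0.56 on the IRE1-labelled arrays, and 1.24, -0.36 and 0.63 in control cells. The values without DTT were 1.48, 0.75 and 0.80 under XBP-1 RNAi, 1.00, 0.44 and 0.60 on the IRE1-labelled arrays, and 1.02, 0.18 and 0.92 in control cells. The 3 groups with DTT did not overlap one another, with XBP-1 RNAi lowest and control highest, while the 3 groups without DTT did. ERp60 followed the same order. On arrays with DTT it read -1.90, -1.75 and -2.12 under XBP-1 RNAi, -0.49, -0.49 and -0.28 on the IRE1-labelled arrays, and 0.66, -0.01 and 0.17 in control cells. On arrays without DTT it read 1.76, 0.51 and 0.91 under XBP-1 RNAi, 1.71, 0.73 and 0.54 on the IRE1-labelled arrays, and 1.25, 0.50 and 0.52 in control cells. Here too the groups with DTT stood apart and those without DTT overlapped.

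CaBP1, the counterpart of mammalian P5, was the isomerase of the set that rose with DTT in control cells. With DTT its log2 ratio was -0.39, -0.64 and -0.57 under XBP-1 RNAi, 0.12, -0.36 and 0.07 on the IRE1-labelled arrays, and 1.82, 0.68 and 1.65 in control cells. Without DTT it was 0.98, -0.17 and 0.52 under XBP-1 RNAi, 0.66, -0.28 and 0.15 on the IRE1-labelled arrays, and 0.49, -0.30 and 0.45 in control cells. All 3 control arrays with DTT lay above all 3 control arrays without it, whereas the IRE1-labelled arrays overlapped between the treatments. The thioredoxin-domain protein prtp (pretaporter) is known in flies as a ligand on dying cells for the engulfment receptor Draper. After DTT its ratio was -0.87, -1.88 and -2.09 under XBP-1 RNAi, -0.28, -0.91 and -0.96 on the IRE1-labelled arrays, and 0.28, -0.56 and 0.01 in control cells. The values without DTT were 1.75, 1.02 and 1.39 under XBP-1 RNAi, 1.86, 0.47 and 0.83 on the IRE1-labelled arrays, and 0.92, 0.48 and 0.83 in control cells. It was lower with than without DTT on every array of each arm, control included, and the ranges of the RNAi arms with DTT overlapped.

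Ero1L, the oxidase that takes electrons from the isomerases, was highest in control cells that received DTT. On arrays with DTT it read -1.59, -1.24 and -0.76 under XBP-1 RNAi, -0.79, -0.74 and -0.34 on the IRE1-labelled arrays, and 1.67, 1.02 and 1.31 in control cells. On arrays without DTT it read -0.98, -2.22 and -2.21 under XBP-1 RNAi, -1.47, -1.80 and -2.63 on the IRE1-labelled arrays, and -1.70, -2.42 and -2.39 in control cells. The 3 control arrays with DTT stood above the other 15 arrays, and under XBP-1 RNAi the ranges with and without DTT overlapped.

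The lectin chaperones kept the order of groups seen for Pdi and ERp60 with DTT. Calreticulin, Calr, is a calcium-binding lectin of the ER lumen. With DTT its log2 ratio was -1.31, -1.71 and -1.23 under XBP-1 RNAi, -0.41, -0.77 and -0.68 on the IRE1-labelled arrays, and 1.08, -0.06 and 0.98 in control cells. Without DTT it was 0.66, 0.01 and 0.61 under XBP-1 RNAi, 0.56, -0.14 and 0.05 on the IRE1-labelled arrays, and 0.84, -0.03 and 0.13 in control cells. The groups with DTT did not overlap, while control cells with and without DTT did. Cnx99A is a calnexin, the membrane-bound relative. After DTT its ratio was -1.11, -1.17 and -1.04 under XBP-1 RNAi, -0.15, -0.70 and -0.38 on the IRE1-labelled arrays, and 1.04, -0.14 and 0.81 in control cells. The values without DTT were 0.27, -0.22 and 0.33 under XBP-1 RNAi, 0.23, -0.25 and -0.29 on the IRE1-labelled arrays, and 0.31, 0.20 and -0.05 in control cells. The 3 XBP-1 RNAi arrays with DTT were the lowest of the 18, and the highest IRE1-labelled array with DTT (-0.15) lay just under the lowest control array with DTT (-0.14).

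Of the remaining members, scf encodes a calcium-binding EF-hand protein of the reticulocalbin family. On arrays with DTT it read -1.51, -2.43 and -1.45 under XBP-1 RNAi, 0.40, -0.34 and 0.18 on the IRE1-labelled arrays, and 1.68, 0.29 and 1.33 in control cells. On arrays without DTT it read 1.17, 0.14 and 0.71 under XBP-1 RNAi, 1.46, 0.45 and 0.27 on the IRE1-labelled arrays, and 1.04, 0.43 and -0.04 in control cells. The XBP-1 RNAi arrays with DTT stood apart below all others, and the other 5 groups overlapped. The gene sel (seele) encodes a canopy-family ER protein needed in the fly embryo for the protease Easter. With DTT its log2 ratio was -1.03, -1.83 and -1.11 under XBP-1 RNAi, 0.35, -0.72 and -0.38 on the IRE1-labelled arrays, and 1.72, 0.07 and 1.58 in control cells. Without DTT it was 0.28, -0.69 and 0.18 under XBP-1 RNAi, 0.40, -0.69 and -0.22 on the IRE1-labelled arrays, and 0.14, -0.74 and -0.29 in control cells. The XBP-1 RNAi arrays with DTT were again lowest, and the 2 highest values were those of control replicates A and C with DTT. The tenth member, wbl (windbeutel), is the ERp29 relative that lets the sulphotransferase Pipe leave the ER. Its single value, -1.40 on control replicate A with DTT, allowed no comparison.

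In control cells with DTT, replicate B was the lowest of the 3 arrays for 9 of 9 members. That array's median over all probes was -0.49, against 0.24 for replicate A and -0.22 for C. With array medians set to 0 it was still the lowest for 7 of the 9.

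**Figure D1:**
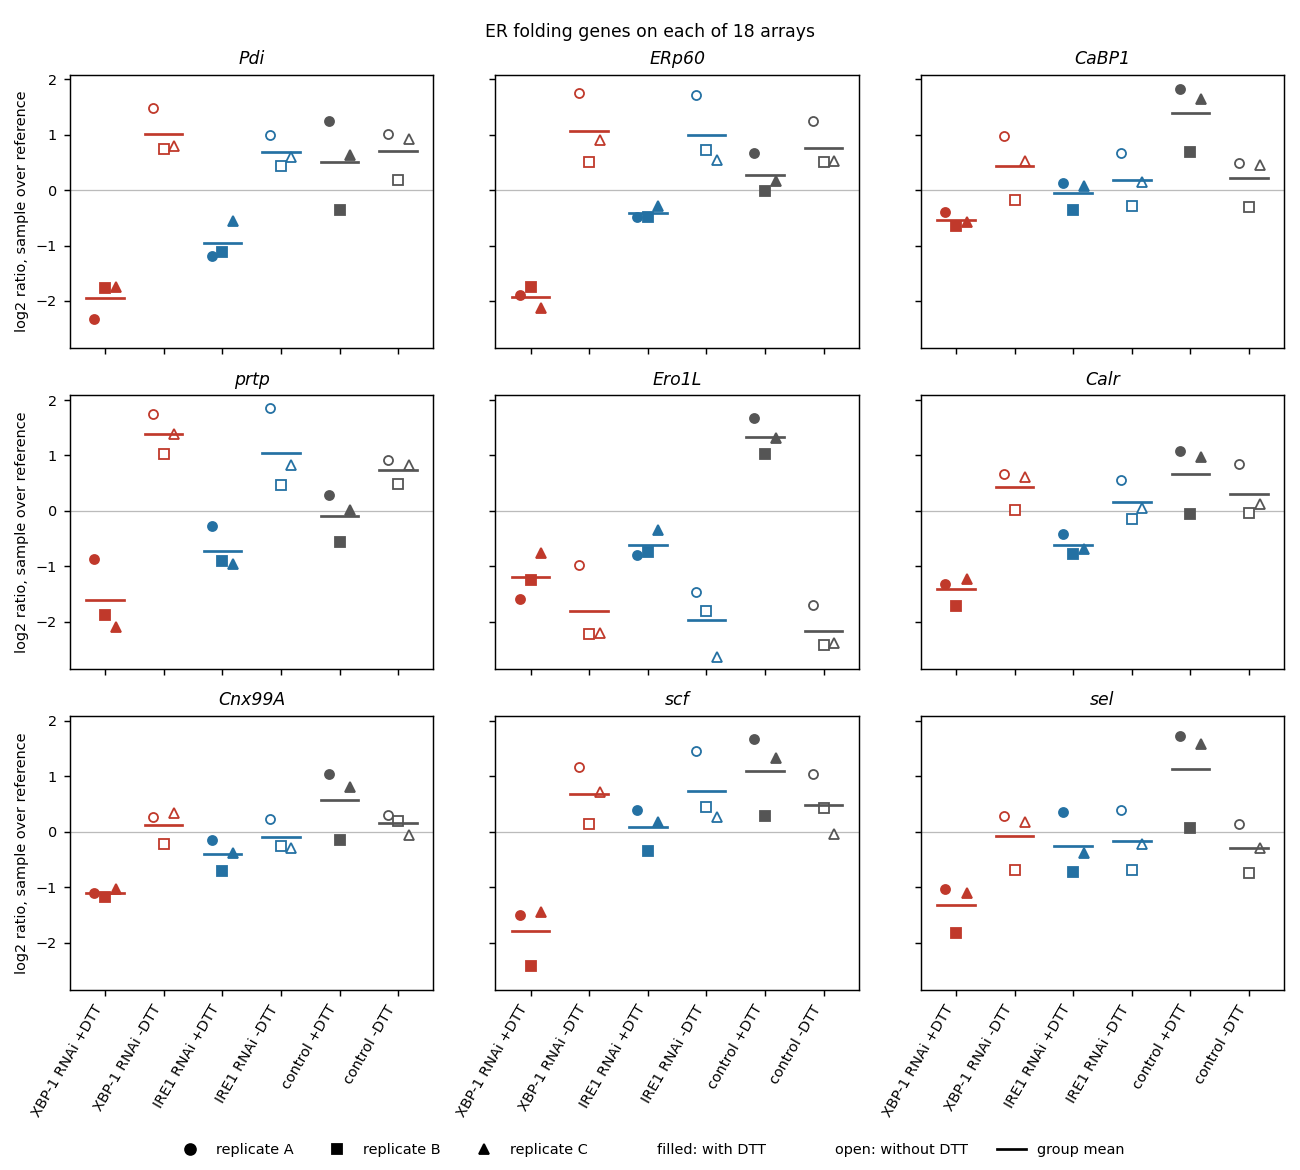
Log2 ratio (sample over reference, vertical axis) of 9 members on each of 18 arrays, grouped on the horizontal axis by RNAi and DTT, with the symbol giving the replicate letter, filled symbols DTT, and a bar for the group mean. Under XBP-1 RNAi with DTT, Pdi sits between -2.33 and -1.75, against -0.36 to 1.24 in control cells with DTT, and Ero1L is above 1 on the 3 control arrays with DTT alone.

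In control cells DTT raised the mRNA of the oxidase and of a few folding helpers, and left most isomerases and lectins without a call. Of the 9 members tested, 3 rose and none fell, where 7.16% of the 5935 probes rose and 4.5% fell. A call here is a Benjamini-Hochberg adjusted p under 0.05 in limma, over all probes tested in the contrast. Ero1L averaged 1.33 ± 0.33 with DTT and -2.17 ± 0.41 without (SD, n = 3 each), a rise of 3.50 ± 0.39 (SE; 11.3-fold; limma, adjusted p = 1.43e-08). It ranked 18th of 5935 probes from the highest. The canopy protein sel rose by 1.42 ± 0.42 (limma, adjusted p = 0.0195) and CaBP1 by 1.17 ± 0.39 (limma, adjusted p = 0.0403). Without overlap between the arrays, CaBP1 and Ero1L were higher with DTT and prtp lower, as were 15.6% and 8.81% of the 4485 probes with a value on all 6 arrays. In whole cultures, fewer cells holding an mRNA and less of it per cell cannot be told apart.

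The other members in control cells gave scf 0.62, Cnx99A 0.42, Calr 0.35, Pdi -0.20, ERp60 -0.48 and prtp -0.83, with limma adjusted p-values of 0.212 to 0.843. The median over the 9 members was 0.42, against 0.15 over all probes. The value for prtp passed with array centring (limma, adjusted p = 0.0469) and with quantile normalization (limma, adjusted p = 0.00583), and that for ERp60 with quantile normalization (limma, adjusted p = 0.0286). Calls of 2 members rested on single arrays. Without replicate B of control without DTT the changes were 0.91 for CaBP1 and 1.20 for sel. Without replicate A of control with DTT they were 0.95 for CaBP1 and 1.12 for sel, and without replicate C 1.04 and 1.19, each past the threshold no more. CaBP1 also lost its call without replicate C of control without DTT (1.29).

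Under XBP-1 RNAi the same treatment took most of the set down. With DTT 7 of 9 members fell and none rose, where 11.3% of 5649 probes fell and 4.51% rose. Of the members, 3 isomerases had the lowest values. For prtp the mean was -1.61 ± 0.65 with DTT and 1.39 ± 0.37 without (SD, n = 3 each), a change of -3.00 ± 0.40 (8.00-fold lower; limma, adjusted p = 3.58e-07). ERp60 changed by -2.98 ± 0.39 (limma, adjusted p = 2.05e-07) and Pdi by -2.96 ± 0.39 (limma, adjusted p = 3.7e-07). In the order of all probes these 3 were 18th, 19th and 20th from the lowest. The calcium-binding scf changed by -2.47 ± 0.42 (limma, adjusted p = 2.84e-05) and Calr by -1.84 ± 0.38 (limma, adjusted p = 0.000429). Smaller falls were those of sel, -1.25 ± 0.42 (limma, adjusted p = 0.0364), and Cnx99A, -1.23 ± 0.37 (limma, adjusted p = 0.015).

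Ero1L and CaBP1 were the members without a call under XBP-1 RNAi, at 0.61 ± 0.39 and -0.98 ± 0.39 (limma, adjusted p = 0.357 and 0.0842). With centring and block together both passed, Ero1L as higher (0.79; limma, adjusted p = 0.0468). In that setting 1320 of 5644 probes were higher and 1213 lower. With the replicate letter as a block, a fit in which limma used 1 variance for all probes here and below, CaBP1 passed (limma, adjusted p = 0.0131). It also passed without replicate B of XBP-1 RNAi without DTT (-1.28). Arrays with and without DTT did not overlap for 8 members, all lower with DTT, where 20.8% of 4228 complete probes were lower and 11.3% higher. The median over the members was -1.84, against -0.08 over all probes. Centring ended the call of sel (limma, adjusted p = 0.0533). Single arrays decided the smaller falls. Leaving out the DTT-free XBP-1 RNAi replicate A, Cnx99A (-1.16) and sel (-1.07) lost their calls, and likewise without replicate C (-1.13 and -1.12). The call of sel also ended without replicate B (-0.99) or C (-1.35) of XBP-1 RNAi with DTT.

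On the IRE1-labelled arrays, the same 3 isomerases were lower with DTT and Ero1L was higher. Of 9 members 3 fell and 1 rose, where 10.2% of 5833 probes fell and 3.43% rose. The changes were -1.77 ± 0.40 for prtp (limma, adjusted p = 0.00157), -1.63 ± 0.39 for Pdi (limma, adjusted p = 0.003) and -1.41 ± 0.39 for ERp60 (limma, adjusted p = 0.00931). Ero1L averaged -0.62 ± 0.25 with DTT and -1.97 ± 0.60 without (SD, n = 3 each), a rise of 1.34 ± 0.39 (limma, adjusted p = 0.0158). The remaining 5 gave Calr -0.78, scf -0.65, Cnx99A -0.31, CaBP1 -0.23 and sel -0.08, with limma adjusted p-values of 0.19 to 0.961. Centring turned the last 2 to 0.05 for CaBP1 and 0.20 for sel. Without overlap Ero1L was higher and Pdi, ERp60, prtp and Calr lower, where 7.21% of 3454 complete probes were higher and 27.5% lower. The median over the members was -0.65, against -0.24 over all probes. ERp60 lost its call without the DTT-free replicate A (-1.06), and Ero1L without replicate C of those without DTT (1.01) or with DTT (1.20).

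**Figure D2:**
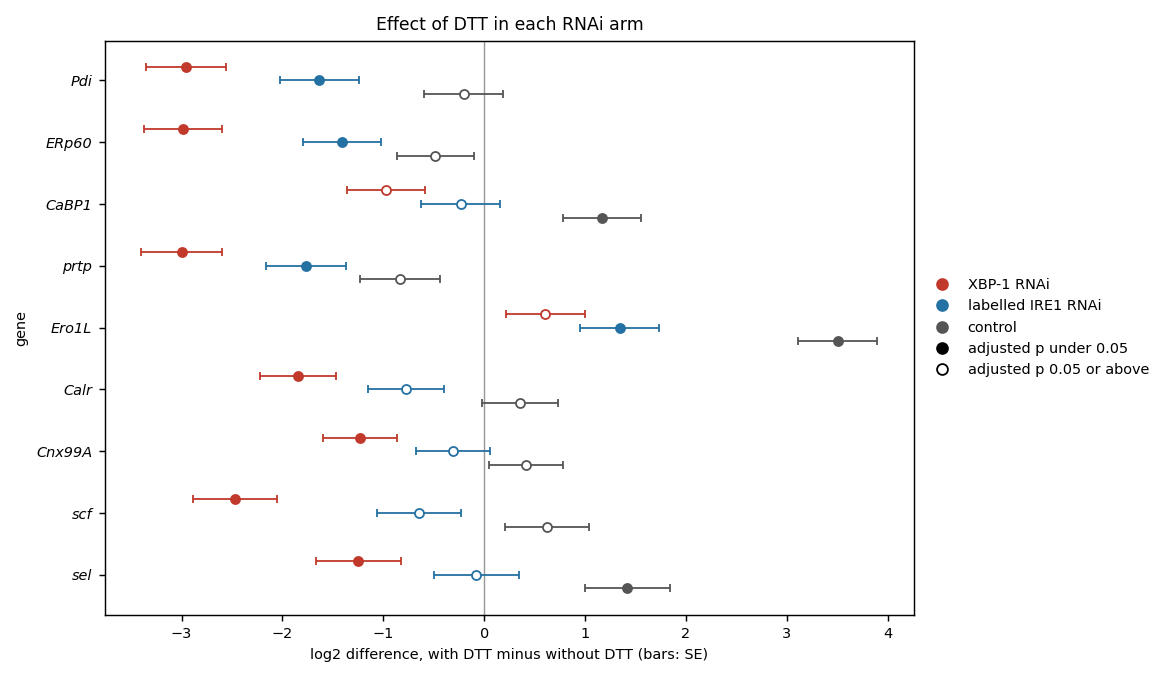
Effect of DTT on 9 members (rows) as the log2 difference, with DTT minus without, on the horizontal axis with its standard error, for XBP-1 RNAi, the IRE1-labelled arrays and control; filled points passed the threshold. Under XBP-1 RNAi 7 members lie below 0 with a call, while in control cells Ero1L stands at 3.50 and Pdi at -0.20.

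The effect of DTT under XBP-1 RNAi was then set against that in control cells in 1 model. The difference was negative for 9 of 9 members, in each of the 3 replicate letters. The median over the members was -2.50, against -0.28 over all probes, whose share below 0 was not counted. Of the members 6 passed the test, where 0.62% of 5483 probes (34) were lower and 0.0% higher. The value was -3.09 ± 0.59 for scf and -2.90 ± 0.56 for Ero1L (limma, adjusted p = 0.00763 for both). Pdi followed at -2.75 ± 0.56 (limma, adjusted p = 0.00958), sel at -2.67 ± 0.60 (limma, adjusted p = 0.0224), ERp60 at -2.50 ± 0.55 (limma, adjusted p = 0.02) and Calr at -2.20 ± 0.54 (limma, adjusted p = 0.0354). Among all probes, scf was 2nd from the lowest, Ero1L 4th and Pdi 6th. Ero1L rose in control cells and had no call under XBP-1 RNAi, while Pdi, ERp60, scf and Calr fell under XBP-1 RNAi and had no call in control cells. The members without a call were prtp at -2.17 ± 0.56 (limma, adjusted p = 0.0568), CaBP1 at -2.15 ± 0.55 (limma, adjusted p = 0.0516) and Cnx99A at -1.65 ± 0.52 (limma, adjusted p = 0.161). Centring brought CaBP1 past the threshold (limma, adjusted p = 0.0389) and quantile normalization prtp (limma, adjusted p = 0.0415). With the letter as a block all 9 passed, where 166 of 5483 probes were lower and 25 higher. Centring and block together also gave 9, where 246 probes were lower and 122 higher.

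These calls, though not the estimates, depended on single arrays. Without replicate A of control with DTT no member and no probe of the table passed in limma. The estimates of the 6 members then lay between -2.80 and -1.99. All 9 members had an unadjusted p under 0.05 in that fit, where the probes of the whole table below it were not counted. With no array left out, 408 of 5483 probes had an unadjusted p under 0.05. Without replicate B of control without DTT 2 members passed, with Pdi, ERp60, Calr and sel (-2.49 to -2.03) losing their calls. Leaving out the DTT-free XBP-1 RNAi replicate A, 3 passed, and ERp60, Calr and sel (-2.49 to -2.08) did not. Without replicate B of control with DTT all 9 passed. The other 8 omissions left 4 to 8 members past the threshold, and the call of Calr (-2.29 to -2.04) ended in 6 of them, those of replicate C of control with DTT, replicate C of control without DTT, replicates A, B and C of XBP-1 RNAi with DTT, and replicate C of XBP-1 RNAi without DTT. The call of ERp60 ended without replicate C of control without DTT (-2.38) or of XBP-1 RNAi with DTT (-2.40), and that of sel without replicate C of control with DTT (-2.44) or replicate B of XBP-1 RNAi with DTT (-2.41).

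The same difference between the IRE1-labelled arrays and control was also negative for 9 of 9 members in each letter, but none passed in limma, where 0.0358% of 5594 probes were lower and 0.0536% higher. At an unadjusted p under 0.05 in limma it was 6 of the 9 members and 473 of the 5594 probes. Ero1L had the lowest value, -2.16 ± 0.56 (limma, adjusted p = 0.111), followed by sel at -1.50, Pdi at -1.43, CaBP1 at -1.40, scf at -1.27 and Calr at -1.13. The values nearest 0 were those of prtp (-0.94), ERp60 (-0.93) and Cnx99A (-0.72), beside a median of -0.44 over all probes. As that median was itself below 0, the sign alone does not set the members apart. The share of all probes below 0 was not counted. With the letter as a block Ero1L (limma, adjusted p = 0.000799) and sel (limma, adjusted p = 0.0441) passed. Ero1L also passed with quantile normalization (limma, adjusted p = 0.0375) and without replicate C of the IRE1-labelled arrays without DTT (-2.49).

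Between the RNAi arms the effect of DTT was higher on the IRE1-labelled arrays than under XBP-1 RNAi for 9 of 9 members in each letter, by 0.74 to 1.82. None passed in limma (adjusted p = 0.999 for each), and 0.0% of 5417 probes passed in either direction. At an unadjusted p under 0.05 it was 4 of the 9 members and 67 of all probes. The values were 1.82 ± 0.59 for scf and 1.57 ± 0.55 for ERp60. With the letter as a block scf passed (limma, adjusted p = 0.0346), and with quantile normalization ERp60 did (limma, adjusted p = 0.0275). The 3 differences between arms share arrays, so their values are set side by side and not counted as separate support for one another.

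**Figure D3:**
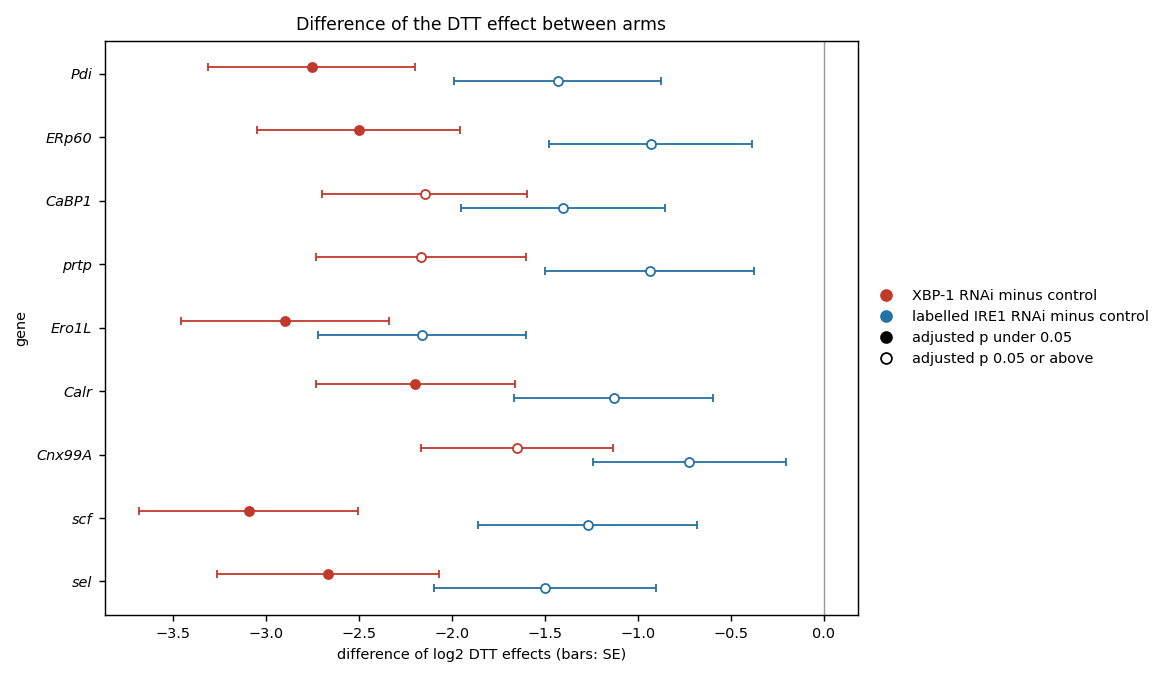
Difference of the DTT effect between arms for 9 members (rows), in log2 units with its standard error on the horizontal axis, for XBP-1 RNAi minus control and the IRE1-labelled arrays minus control; filled points passed the threshold. All points lie below 0, with 6 filled for XBP-1 RNAi (scf at -3.09) and 0 for the IRE1-labelled arrays (Ero1L lowest at -2.16).

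Among cells that all received DTT, every tested member was lower under XBP-1 RNAi than in control. All 9 passed, and in all 9 the arrays of the groups did not overlap. Of 5888 probes 1.94% were lower and 0.119% higher, and of the 4616 probes with a value on all 6 arrays 6.13% were lower and 1.99% higher without overlap. The calcium-binding scf averaged -1.80 ± 0.55 under XBP-1 RNAi and 1.10 ± 0.72 in control (SD, n = 3 each), a difference of -2.90 ± 0.42 (7.45-fold lower; limma, adjusted p = 1.88e-05) and 3rd from the lowest of all probes. Ero1L differed by -2.53 (limma, adjusted p = 6.6e-05), Pdi by -2.45 (limma, adjusted p = 9.79e-05) and sel by -2.45 (limma, adjusted p = 0.000286). The remaining values were -2.20 for ERp60, -2.08 for Calr, -1.92 for CaBP1, -1.68 for Cnx99A and -1.52 for prtp, with limma adjusted p-values of 0.000359 to 0.025. The median over all probes was -0.04. Of these calls those of prtp and Cnx99A ended without single arrays. Without replicate A of control with DTT they stood at -1.34 and -1.44, and without replicate C at -1.47 and -1.56. The call of prtp also ended without replicate B (-1.39) or C (-1.28) of XBP-1 RNAi with DTT.

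On the IRE1-labelled arrays with DTT, Ero1L, Pdi and CaBP1 were lower than in control with DTT. These 3 of 9 passed, where 1.7% of 5868 probes were lower and 0.409% higher. Ero1L differed by -1.96 ± 0.39 (limma, adjusted p = 0.00233), Pdi by -1.46 ± 0.39 and CaBP1 by -1.44 ± 0.39 (limma, adjusted p = 0.035 for both). The other 6 gave sel -1.37, Calr -1.29, scf -1.02, Cnx99A -0.98, ERp60 -0.69 and prtp -0.63, with limma adjusted p-values of 0.0587 to 0.465, beside a median of -0.40 over all probes. Arrays of the groups did not overlap for 6 of the 9, all lower, where 18.3% of 3466 complete probes were lower and 2.11% higher without overlap. Centring left 1 call, that of Ero1L, with Pdi and CaBP1 just short (limma, adjusted p = 0.0598 and 0.0669). The block gave 7 calls, adding scf, Calr, Cnx99A and sel (limma, adjusted p = 0.0269, 0.00253, 0.0365 and 0.000999). Pdi and CaBP1 lost their calls without replicate A (-1.09 and -1.22) or C (-1.39 and -1.31) of control with DTT, and without replicate A (-1.34 and -1.53) or B (-1.38 and -1.29) of the IRE1-labelled arrays with DTT. Without replicate B of control with DTT Calr, Cnx99A and sel passed (-1.90 to -1.34), giving 6 calls. Over all probes 53, 57, 58 and 127 passed in the omissions that ended calls, in that order, and 146 in the last. With no array left out, 24 were higher and 100 lower.

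With DTT, the IRE1-labelled arrays lay above those of XBP-1 RNAi without overlap for 7 of 9 members, all but Ero1L and prtp, where 2.85% of 3368 complete probes did so and 5.73% lay below. Across the groups with DTT the order of means was thus XBP-1 RNAi lowest, the IRE1-labelled arrays next and control highest for each of the 9 members.

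**Figure D4:**
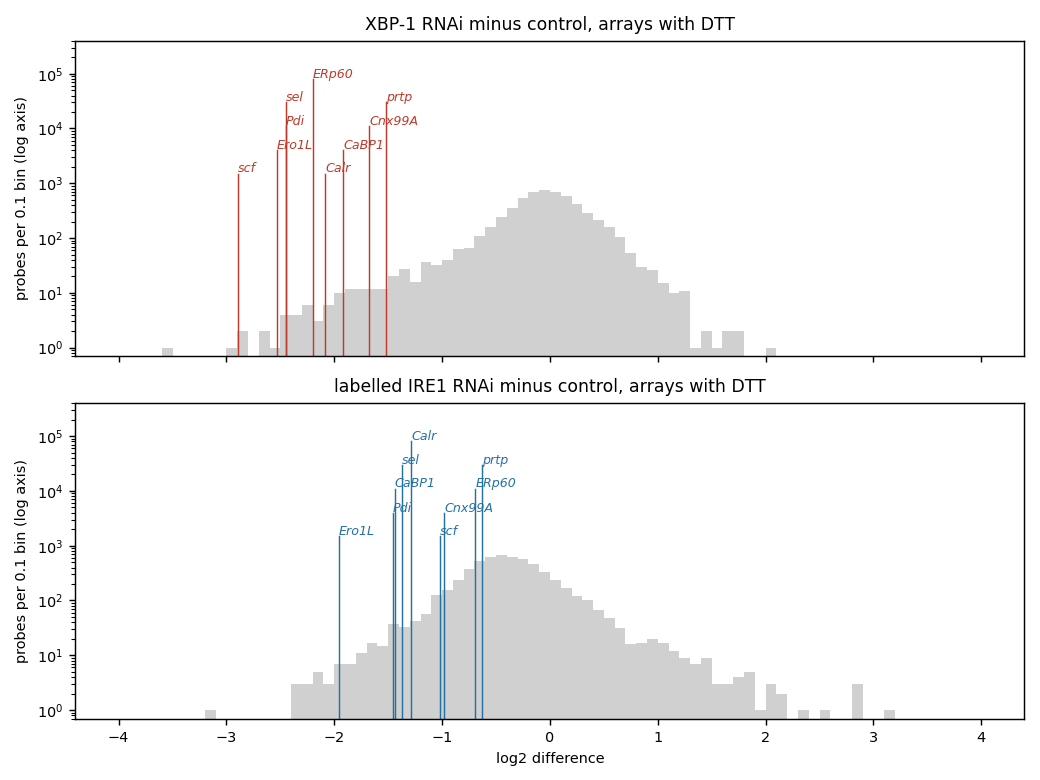
Distribution over all tested probes of the log2 difference from control among arrays with DTT (horizontal axis; probes per bin on a log axis), above for XBP-1 RNAi and below for the IRE1-labelled arrays, with a line at each of 9 members. Under XBP-1 RNAi the members lie between -2.90 and -1.52, and on the IRE1-labelled arrays between -1.96 and -0.63.

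Without DTT the RNAi arms and control had no call. XBP-1 RNAi minus control ran from -0.03 to 0.64 over the 9 members (limma, adjusted p = 0.977 to 0.988), with 0 of 5729 probes passing (0.0%) and 75 at an unadjusted p under 0.05, none of them a member. The highest value was that of prtp, which was higher under XBP-1 RNAi without overlap, as were 8.51% of 4256 complete probes, with 0.282% lower. The arrays labelled IRE1 RNAi minus control ran from -0.26 to 0.31 (limma, adjusted p = 0.999 for each), with 0 of 5914 probes passing (0.0%) and 24 at an unadjusted p under 0.05, none of these a member. No member was apart without overlap there, where 1.95% of 4402 complete probes were higher and 0.704% lower. With no probe of the table passing, these tests do not show that the levels were equal.

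A companion list of other ER folding and glycoprotein control genes held 21 CG numbers. The number CG10973 had been entered in error in place of Sil1 and was not analysed here, and of the other 20 genes, 18 were tested. A gene with 2 probes was counted where both passed in the same direction. In control cells DTT raised 4, which were the ER chaperones Hsc70-3 (BiP, 2.92) and Gp93 (1.32) and the J-domain co-chaperones P58IPK (1.86) and shv (1.21 and 1.17 by its 2 probes), and lowered the thioredoxin-domain gene CG9302 (-1.19). Of all probes tested there 7.16% rose and 4.5% fell. Under XBP-1 RNAi 7 fell and 1 rose, where 11.3% of all probes fell and 4.51% rose. The probes of shv were split there, with 1 passing as lower (-1.20; limma, adjusted p = 0.03) and the other not (-0.90; limma, adjusted p = 0.102), so shv is in neither count. The falls were those of both subunits of glucosidase II, which trims sugars before lectin binding (GCS2beta -2.81, GCS2alpha -1.62), a further calnexin (Cnx14D, -1.32), CG9302 (-2.86), CG5554 (-2.44), ERp44 (-1.79) and Gp93 (-1.39), and Hsc70-3 was the gene that rose (1.24). On the IRE1-labelled arrays Hsc70-3 rose (1.41) and none fell, where 3.43% of all probes rose and 10.2% fell. Several of these calls ended without single arrays. In control cells that held for Gp93 (1.06 at the lowest), shv (0.96 and 0.84) without replicate A or C with DTT, for shv also without B or C without DTT, and for CG9302 (-1.29 to -0.95) without any 1 of the 6 control arrays but replicate A with DTT. Under XBP-1 RNAi it held for Hsc70-3 without replicate A or B without DTT or C with DTT (0.63 at the lowest), and for Cnx14D (-1.15 at the highest) without replicate C without DTT or A with DTT. On the IRE1-labelled arrays Hsc70-3 lost its call without replicate B without DTT or A or C with DTT (1.15 at the lowest).

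The difference of the DTT effect between XBP-1 RNAi and control passed as lower for 3 of the 18 companions, where 0.62% of all probes were lower. They were Gp93 (-2.72), P58IPK (-2.19) and shv (-2.11 and -2.37). None of these passed without replicate A of control with DTT, where Gp93 stood at -2.46. That was the 1 omission of 12 to end the call of Gp93, whereas 8 of 12 ended that of P58IPK (-2.45 to -2.03 over the 12), and 9 and 7 of 12 those of the probes of shv (-2.48 to -1.86 and -2.73 to -2.04). With DTT, 10 of 18 companions were lower under XBP-1 RNAi than in control, from Gp93 (-2.82) to GCS2alpha (-1.55), where 1.94% of all probes were lower. On the IRE1-labelled arrays 5 were lower than in control with DTT, where 1.7% of all probes were lower. The 5 were Gp93 (-2.35), Hsc70-3 (-2.10), P58IPK (-1.88), Grp170 (-1.80) and shv (-1.48 and -1.64). Without replicate A or C of control with DTT the calls of GCS2alpha, GCS2beta, CG9302 and CNPYb under XBP-1 RNAi (-1.26 at the highest) and of shv on the IRE1-labelled arrays (-1.23 at the highest) ended, as some did without 1 RNAi array with DTT. With quantile normalization the effect of DTT on Hsc70-3 no longer passed under XBP-1 RNAi (1.03; limma, adjusted p = 0.21) or on the IRE1-labelled arrays (1.42; limma, adjusted p = 0.0959), while the estimates stayed close to those above.

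Across the 18 arrays, with array medians set to 0, the 36 pairs of members correlated with Pearson r from -0.42 (Ero1L and prtp) to 0.96 (CaBP1 and sel), with a median of 0.77. Ero1L stood out with a median r of 0.19 with the other 8, while Calr had 0.84. These are descriptions over arrays that share DTT treatment, RNAi arm and replicate letter. Among 5050 probes, the gene most like each member was Spp for Pdi (r = 0.96), OstDelta for ERp60 (0.96), Der-2 for CaBP1 (0.95), klhl10 for prtp (0.96), Sil1 for Ero1L (0.96), Fkbp14 for scf (0.92) and CG11999 for sel (0.94), over 18 arrays each. Over 16 arrays it was sphe for Calr (0.94) and SPoCk for Cnx99A (0.92).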

How the data were processed

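RNA of S2 cells was measured on 18 spotted arrays against 1 common reference. The deposited values are log2 ratios as read here. Per the labels, the authors used the NOMAD database for normalization. They dropped defective spots, spots whose signal was not 1.5-fold over background, and spots where Cy5 and Cy3 fitted each other with an R2 below 0.5. Spot intensities were not used here, so the number of arrays limits the precision.

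Probe numbers were read as CG gene numbers (99.9% are) and named through the Release 6 annotation, since platform symbols matched the CG number's gene in 1 of 4750 cases and in 0 of the 4 members so named. In limma 3.58.1 under R 4.3.3 (lmFit, eBayes), 6 group means were fitted per probe to the deposited values of 18 arrays. A contrast needed 2 or more values in both of its groups, or in all 4 where DTT effects were compared. The p-values are 2-sided and Benjamini-Hochberg adjusted within each of 10 contrasts. Groups and letters came from sample titles. The labels do not say that letters mark separate cultures, so p-values measure a spread that may be technical. Members, companion list and named genes (all members, RNAi targets, companions past a test, and the gene most like each member over at least 15 arrays) were chosen with earlier results of these data known.

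Arrays of the same letter deviated together, with r over 0.1 in 44 of 45 pairs of groups (median 0.44, against -0.23 for different letters). Unless a block is named, the fits behind the p-values held no term for the letter in any of the 10 contrasts. Those p-values thus do not use the pairing of letters. The pair below was XBP-1 RNAi with DTT and control without DTT in letter C (0.01). In the difference of DTT effects between XBP-1 RNAi and control, 17 of 18 same-letter pairs were over 0.1. Alternatives were array centring, quantile normalization, the letter as a block, centring with block, other minimum numbers of values and omission of each array. The script was tested on simulated data with noise drawn separately for each array. That test does not cover deviations shared by a letter.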

Additional observations from a re-analysis of the deposited data

Results flagged for a closer look

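The effect of DTT differed between XBP-1 RNAi and control cells, by a test of the difference itself, for 6 members. The log2 difference was -3.09 for scf, -2.90 for Ero1L, -2.75 for Pdi, -2.67 for sel, -2.50 for ERp60 and -2.20 for Calr. Each was negative in 3 of 3 replicate letters, beside a median of -0.28 over all probes. Without replicate A of control with DTT none of the 6 and no probe of the table passed in limma, with estimates of -2.80 to -1.99. All 9 members had an unadjusted p under 0.05 in that fit. With no array left out, 408 of 5483 probes had one.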

How the results depend on the processing

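No member changed direction with its call under any alternative: over 90 pairs of member and contrast, the side of the threshold was kept by 85 with array centring, 83 with quantile normalization, 79 with the replicate block and 75 with centring and block, and by 636 of 702 with single arrays left out. For the effect of DTT in control cells 5 members passed with quantile normalization and 5 with centring and block, in place of 3. Under XBP-1 RNAi centring and block gave 9 members, 1 higher and 8 lower, in place of 7. For the difference of DTT effects between the IRE1-labelled arrays and control, 1 passed with quantile normalization, 2 with the block and 3 with both centring and block, and between the IRE1-labelled arrays and XBP-1 RNAi these counts were 1, 1 and 3, in place of 0. For the IRE1-labelled arrays minus control with DTT, 1 passed with centring, 7 with the block and 5 with centring and block, in place of 3. Where a member passed in one scaling and not in another, the cause was not tested. For the difference of DTT effects between XBP-1 RNAi and control, the block gave 9 members in place of 6, as did centring and block. The block changed no other call of a member than those named here and beside the results. Requiring at least 3 values per group kept 87 of the 90, and at least 1 value kept 90. With 3 values, 8 members passed in place of 6 for the difference of DTT effects between XBP-1 RNAi and control. For the IRE1-labelled arrays minus control with DTT, 4 passed in place of 3. Calls over all probes were not counted in these 2 settings. With single arrays left out the counts were 1 to 3 (DTT in control), 5 to 8 (XBP-1 RNAi), 3 to 4 (IRE1-labelled), 0 to 9 (XBP-1 RNAi minus control), 0 to 1 (IRE1-labelled minus control), 7 to 9 (XBP-1 RNAi minus control with DTT), 1 to 6 (IRE1-labelled minus control with DTT) and 0 for the other 3 contrasts. The same counts over all probes, in that order, were 457 to 640, 508 to 904, 458 to 709, 0 to 76, 0 to 16, 48 to 147, 53 to 146 and 0 to 1. Over all probes, the calls in control cells were 425 higher and 267 lower as deposited, 693 and 710 with centring, 821 and 863 with quantile normalization and 688 and 469 with the block. Under XBP-1 RNAi they were 255 and 636, 821 and 931, 680 and 871, and 489 and 996, and on the IRE1-labelled arrays 200 and 593, 515 and 797, 549 and 717, and 305 and 979. With DTT, XBP-1 RNAi minus control gave 7 and 114, 39 and 201, 35 and 248, and 42 and 212, and the IRE1-labelled arrays minus control 24 and 100, 158 and 132, 152 and 173, and 88 and 369. For the difference of DTT effects, XBP-1 RNAi minus control gave 0 and 34, 13 and 69, 12 and 94, and 25 and 166, the IRE1-labelled arrays minus control 3 and 2, 31 and 24, 47 and 38, and 30 and 121, and those minus XBP-1 RNAi 0 and 0, 8 and 0, 11 and 0, and 11 and 1. Centring and block together gave 1005 higher and 997 lower in control cells and 1320 and 1213 under XBP-1 RNAi. On the IRE1-labelled arrays that setting gave 770 and 1083. With DTT it gave 122 and 331 for XBP-1 RNAi minus control and 320 and 278 for the IRE1-labelled arrays minus control. For the difference of DTT effects it gave 122 and 246, 117 and 138, and 40 and 1, in the order above. In the block fit without centring limma used 1 variance in common for all probes, which probably makes p too small. Signal over background was not analysed here.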
